A study of Mus musculus with 4 samples.

Results

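The Mcm genes form a family of 9 (Mcm2 to Mcm10), found by symbol in the RefSeq table among 19797 gene symbols. Each has 1 RefSeq transcript row, and all 9 passed the expression filter (a mean of at least 1 FPKM, reads scaled by transcript length and library total, over the 4 libraries), as did 12050 symbols in all. They were measured by total RNA sequencing in MC1-ZE7, a mouse embryonic stem (ES) cell line of 129S6/SvEvTac origin that carries the fluorescent protein Emerald as a reporter of Zscan4, grown without feeders in serum and LIF. Emerald-positive cells of the fraction titled high (Em+) and Emerald-negative cells (Em-) of this line were separated by cell sorting, with 2 libraries of each. Both fractions carry the reporter, so neither is a reporter-free control. The labels do not state whether the 2 libraries of a fraction derive from separate cultures. Each p-value therefore reflects the scatter of these libraries alone, and that scatter may be technical.

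MCM proteins are the motor of DNA replication. MCM2 to MCM7 form a ring that the origin recognition complex, CDC6 and CDT1 load onto origins, and that CDC45 and the GINS complex later turn into the active helicase. MCM8 and MCM9 form a separate complex that takes part in homologous recombination and in the repair of DNA crosslinks and mismatches, and MCM10, which is not related to the others in sequence, helps to activate the loaded helicase. ES cells divide fast and are known for loading much MCM protein onto chromatin.

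RefSeq counts summed to 17927765 and 16468218 in Em+ replicates 1 and 2 and to 18364973 and 18953217 in Em- replicates 1 and 2. Scatter within a fraction, summed over the tested genes, was larger in Em+ (chi-square divided by its degrees of freedom, 35.1) than in Em- (4.31). Both values include the ribosomal transcript Rn45s, and its part in them was not separated from that of the other genes. Rn45s took 3.93% and 7.95% of the counts in Em+ replicates 1 and 2, against 4.33% and 3.98% in the Em- libraries. The sample descriptions name the opposite fraction to the titles and cell type field in all 4 samples. The titles were followed. Zscan4d, a gene of the Zscan4 family, had 93.1 and 89.6 CPM in Em+ libraries, against 1.26 and 1.32 CPM in Em- libraries. CPM is the read count scaled to library size. All 8 ES cell markers listed passed the filter and summed to 949 and 740 FPKM in Em+, against 1020 and 1010 FPKM in Em-. The summed markers of primitive endoderm, of mesoderm and ectoderm, of trophoblast and of fibroblasts lay between 2.65 and 9.62 FPKM in every library. In that order, 1 of 7, 1 of 8, 2 of 6 and 1 of 7 listed genes passed the filter. Only 4 of the 7 fibroblast genes had a row. Within the fibroblast list, Thy1 rose in Em+ (20.5 and 19.5 CPM, against 10.5 and 11.2 CPM in Em-, adjusted p = 0.00386 in edgeR's quasi-likelihood test), and its part in the results below was not tested. The tested trophoblast genes, Krt7 (log2 fold change -0.39, adjusted p = 0.116) and Tfap2c (0.11, adjusted p = 0.379), were not called. In sorted populations, fewer cells of a type and less RNA per cell cannot be told apart.

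Mcm9 was the member called different between the fractions, and its transcript models differ in where they end. The sequences below show the place where the models part, after the eighth exon of the longest model. They are read 5′ to 3′ from GENCODE M21 transcripts on the minus strand of chromosome 10 (GRCm38, the same assembly as mm10). The shared end of the eighth exon, chr10:53611352-53611381, is in lower case, and the coding bases that follow it in each model are in capitals.

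Mcm9 long model: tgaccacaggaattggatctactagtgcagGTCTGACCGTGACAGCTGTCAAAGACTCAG

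Mcm9 read-through model: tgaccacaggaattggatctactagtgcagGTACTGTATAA

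Mcm9 alternative-exon model: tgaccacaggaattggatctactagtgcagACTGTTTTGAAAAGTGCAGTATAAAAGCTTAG

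In the long model, which has 14 exons and 1290 codons, the coding sequence goes on into the ninth exon at chr10:53563428-53563457. The read-through model continues past the end of the eighth exon to a stop codon, at chr10:53611341-53611351, and has 386 codons. The alternative-exon model joins another exon, at chr10:53608983-53609014, and has 414 codons. The short models also differ upstream of this junction, so the printed bases do not account for all of their difference in codons. Both short models share exons with the first 8 exons of the long model and with none of the later ones.

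Mcm9 rose in Em+ cells about 4-fold on its RefSeq row (a log2 fold change of 2.00, against 0.79 with all 5 known-gene rows summed). It had 30.3 and 32.1 CPM in Em+ libraries, against 8.08 and 7.54 CPM in Em- libraries, so both Em+ libraries lay far above both Em- libraries. The log2 fold change was 2.00 (SE 0.11, 95% interval 1.75 to 2.25, adjusted p = 3.61e-05, edgeR, adjusted by Benjamini-Hochberg over 12050 genes). Mcm9 was the 1 member of 9 called at an adjusted p below 0.05, where 3.82% of all genes tested were called higher and 0.822% were called lower in Em+. Of all genes, 1.79% reached a log2 fold change of 1 or more. On the per-length scale the RefSeq row of Mcm9 was the lowest of the family in every library, at 3.83 and 3.46 FPKM in Em+ and 1.06 and 0.988 FPKM in Em-. Summed over the known-gene rows, Mcm9 had 11.0 and 11.2 FPKM in Em+ and 7.80 and 8.32 FPKM in Em-. The sum for Mcm8 was lower (7.39 and 7.04 FPKM in Em+, 7.27 and 7.48 FPKM in Em-). These sums add overlapping rows, 5 for Mcm9 and 2 for Mcm8, so the order of the genes depends on the rows added.

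**Figure D1:**
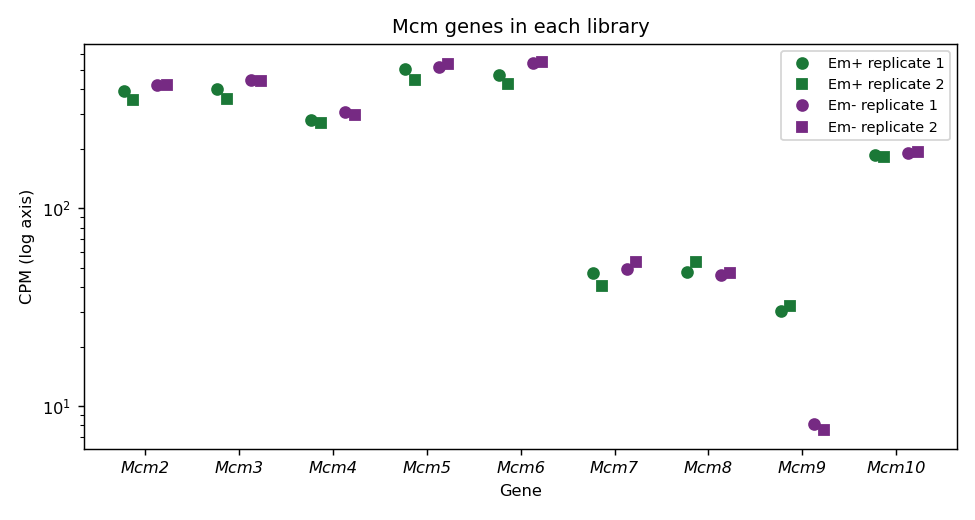
CPM of each Mcm gene (log axis) in Em+ replicates 1 and 2 (green) and Em- replicates 1 and 2 (purple), 1 point per library. Mcm9 lies at 30.3 and 32.1 CPM in Em+ and at 8.08 and 7.54 CPM in Em-, while the points of the other members lie close together.

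The higher Mcm9 level was found on the row of the full-length transcript. In the known-gene table, the row NM_027830, which spans chr10:53537324-53630439, had 543 and 508 reads in Em+ libraries, against 147 and 143 reads in Em- libraries. For this row the log2 fold change came to 1.98 (SE 0.11, adjusted p = 1.74e-05 over 17142 rows, of which 2.72% were called higher and 0.473% lower). The full-length row therefore held over 3 times as many reads in each Em+ library as in either Em- library.

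The rows that end early in the gene did not pass the test. AK139112, at chr10:53608069-53630131, had 180 and 203 reads in Em+, against 177 and 213 reads in Em- (log2 fold change 0.10, SE 0.15, adjusted p = 0.736). AK018494, at chr10:53610697-53630131, had 365 and 415 reads in Em+, against 362 and 402 reads in Em- (0.16, SE 0.13, adjusted p = 0.503). For both rows the libraries of the fractions overlapped. The 3′ ends of the short models printed above lie at chr10:53608058 (alternative-exon) and chr10:53608838 (read-through). AK139112 ends near the first of these, and AK018494 stops before both. Which model each row follows is not stated.

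The ratio of the full-length count to the summed counts of those 2 rows was 0.996 and 0.822 in Em+ libraries, against 0.273 and 0.233 in Em- libraries. The 2 rows overlap, so a read may be counted on both. In a test of each row against the other rows of its gene (diffSpliceDGE of edgeR, chosen after seeing the data), NM_027830 was higher in Em+ by 1.23 on the log2 scale relative to the gene as a whole (adjusted p = 0.00158 over 6604 rows, of which 0.182% were called). AK139112 (-0.64, adjusted p = 0.335) and AK018494 (-0.59, adjusted p = 0.219) were not called. The rows of Mcm6 and Mcm10 that could be tested in this way had an adjusted p of 1. On simulated data this test recovered fewer of the changed rows that held most of their gene's reads, as AK145520 of Mcm6 does, than of the other changed rows.

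**Figure D2:**
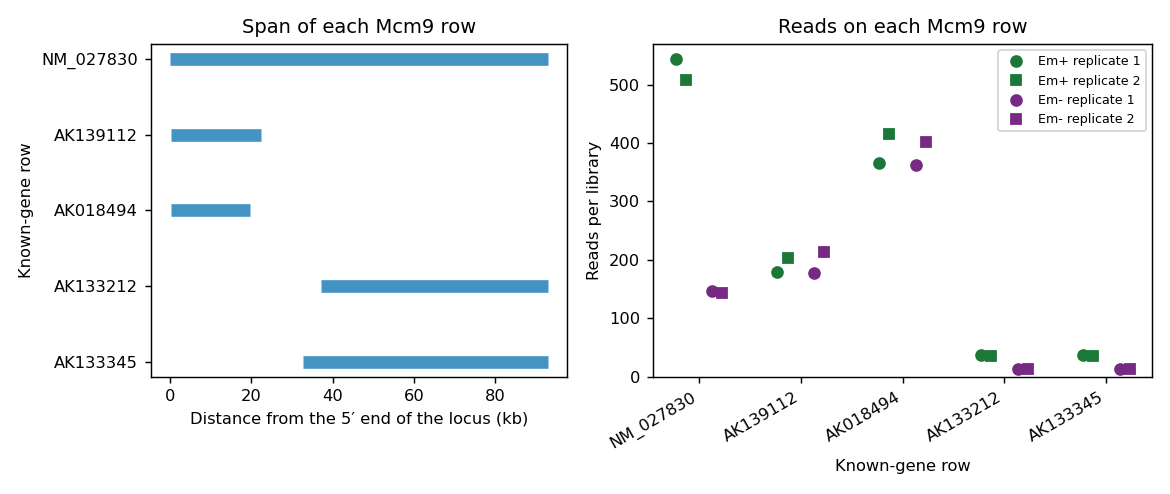
Left, the span of each Mcm9 row of the known-gene table, in kb from the 5′ end of the locus. Right, reads on each row in Em+ (green) and Em- (purple) libraries: NM_027830 has 543 and 508 reads in Em+ and 147 and 143 in Em-, while AK139112 and AK018494 overlap between the fractions.

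The 3′ part of the gene showed the same direction. AK133212 and AK133345, which begin inside the gene and run to its 3′ end, each had 38 and 35 reads in Em+ libraries, against 14 and 14 in Em- libraries. The counts of the 2 rows were identical, so they are not separate measurements, and both fell below the expression filter. Without that filter each had a log2 fold change of 1.45 (SE 0.30, adjusted p = 0.0207). In the ENCODE table the Mcm9 row is 995 bases longer than the RefSeq row, and it had 723 and 692 reads in Em+, against 211 and 204 reads in Em- (1.90, SE 0.11, adjusted p = 3.81e-07 over 30814 rows, of which 2.10% were called higher). The difference between the ENCODE and RefSeq counts was 180 and 184 reads in Em+, against 64 and 61 reads in Em-, a description with no test.

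The size of the Mcm9 difference therefore depended on which rows were added up. Summed over all 5 rows of the known-gene table, the Mcm9 counts came to 1164 and 1196 in Em+, against 714 and 786 in Em-. The log2 fold change of this sum was 0.79 (adjusted p = 0.00464, edgeR, with 3.05% of genes called higher). Several of these rows overlap, and the identical counts of AK133212 and AK133345 both enter the sum. A read may therefore be counted in it more than once. The count of NM_027830 was the same in the RefSeq table, which has no AK rows. This was not so for Mcm6, whose row NM_008567 had 520 and 369 reads in Em+ and 587 and 653 reads in Em- in the known-gene table, against 8436 and 6746 reads in Em+ and 9870 and 10374 reads in Em- in the RefSeq table. How reads in exons shared by several rows were assigned is not given in the sources used here, nor is the use of strand. Asf1a, a histone chaperone gene, lies on the other strand within the Mcm9 locus. Its span, chr10:53596961-53609215, overlaps the 3′ end of the AK139112 row and the alternative exon shown above. Whether Asf1a reads were counted on that row was not tested. Asf1a had 50.3 and 52.7 CPM in Em+, against 46.2 and 47.9 CPM in Em- (log2 fold change 0.13, adjusted p = 0.312, edgeR, not called).

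Mcm8, which encodes the partner of MCM9, did not pass the test. It had 47.4 and 53.4 CPM in Em+ libraries, against 46.1 and 47.0 CPM in Em- libraries. Both Em+ libraries were above both Em- libraries, as for 29.7% of all genes tested. The log2 fold change was 0.11 (95% interval -0.08 to 0.31, adjusted p = 0.427, edgeR). Without Em+ replicate 1 it was 0.20 and was called (adjusted p = 0.0185), in a comparison that called 21.9% of all genes higher. On the FPKM scale the sign turned (-0.04 and -0.05 with limma on log2(FPKM + 1) and log2(FPKM + 0.1)), where the median of all genes stood at -0.14 and -0.16. In the Ensembl table the 2 rows of Mcm8 held 244 and 260 reads in Em+, against 264 and 276 in Em-, far fewer than the 851 and 845 reads in Em+ and 839 and 891 reads in Em- of the RefSeq row.

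The 6 genes of the replicative helicase were each slightly lower in Em+ and none was called. Their log2 fold changes lay between -0.28 and -0.13, with a median of -0.20, against a median of 0.00 over all genes. All 6 had both Em+ libraries below both Em- libraries, which was also true of 29.7% of all genes. A log2 fold change at or below the median of these 6 was found for 14.7% of genes.

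Mcm6, the member with the highest level per length in the RefSeq table, had 470 and 426 CPM in Em+, against 542 and 547 CPM in Em-. Its log2 fold change was -0.28 (95% interval -0.46 to -0.10, adjusted p = 0.0818, edgeR). Mcm3 had 401 and 358 CPM in Em+, against 447 and 439 CPM in Em-, a log2 fold change of -0.22 (-0.41 to -0.04, adjusted p = 0.137). These are the 2 members whose unadjusted p was below 0.05 in the lower direction, as it was for 10.7% of genes.

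Mcm2 had 394 and 352 CPM in Em+ and 420 and 418 CPM in Em- (-0.17, adjusted p = 0.221, edgeR). Mcm5 had 504 and 447 CPM in Em+ and 517 and 536 CPM in Em- (-0.15, adjusted p = 0.295). Mcm4 had 281 and 269 CPM in Em+ and 306 and 295 CPM in Em- (-0.13, adjusted p = 0.263). In each of these genes Em+ replicate 2 was the lowest library. The 95% intervals ran from -0.35 to 0.01 for Mcm2, from -0.34 to 0.04 for Mcm5 and from -0.28 to 0.02 for Mcm4.

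Mcm7 had 47.3 and 40.6 CPM in Em+ and 49.2 and 53.5 CPM in Em- (-0.22, adjusted p = 0.203, edgeR). Its count is uncertain. A processed pseudogene, Gm5487, matches 2157 bases of its transcript at 97.7% identity, and Ap4m1 and Cops6 overlap it on the other strand. Summed over 10 Ensembl rows, the Mcm7 counts came to 2307 and 1984 in Em+, against 2602 and 2703 in Em-. Many of these rows overlap, so a read may enter the sum more than once. The RefSeq row of Mcm7 had 849 and 642 reads in Em+, against 896 and 1016 in Em-.

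**Figure D3:**
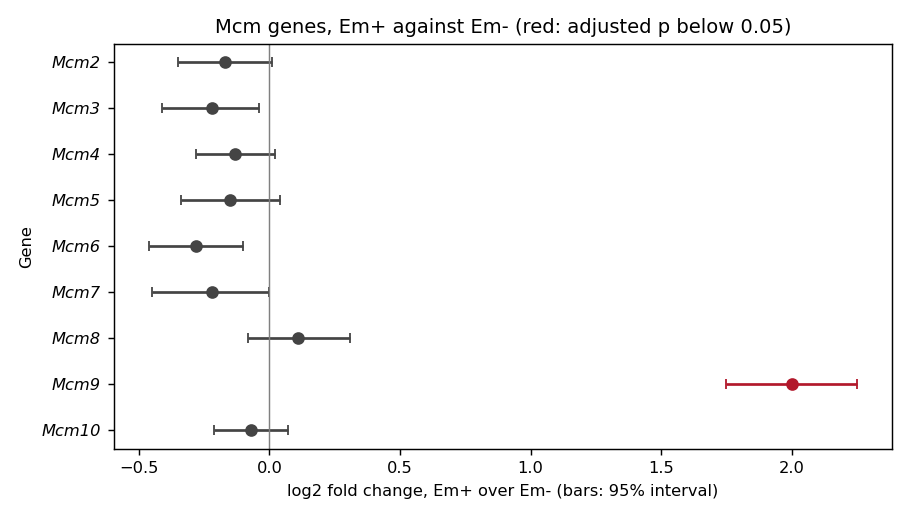
log2 fold change of each Mcm gene, Em+ over Em-, with its 95% interval from edgeR; red marks an adjusted p below 0.05. Mcm9 stands at 2.00, and the other members lie between -0.28 and 0.11.

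The calls on the replicative helicase changed with the Em+ library left out. Without Em+ replicate 1, all 6 genes were called lower (log2 fold changes from -0.35 to -0.16) in a comparison that called 19.5% of all genes lower. Without Em+ replicate 2, Mcm6 (-0.21, adjusted p = 0.00237, edgeR) and Mcm3 (-0.15, adjusted p = 0.0170) were called lower, where 6.90% of all genes were. Without Em- replicate 1 none of the 6 was called (0.274% of all genes were called lower), nor was any without Em- replicate 2 (0.606%). With 1 library left in a fraction, that library was assumed to vary like those of the other fraction.

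**Figure D4:**
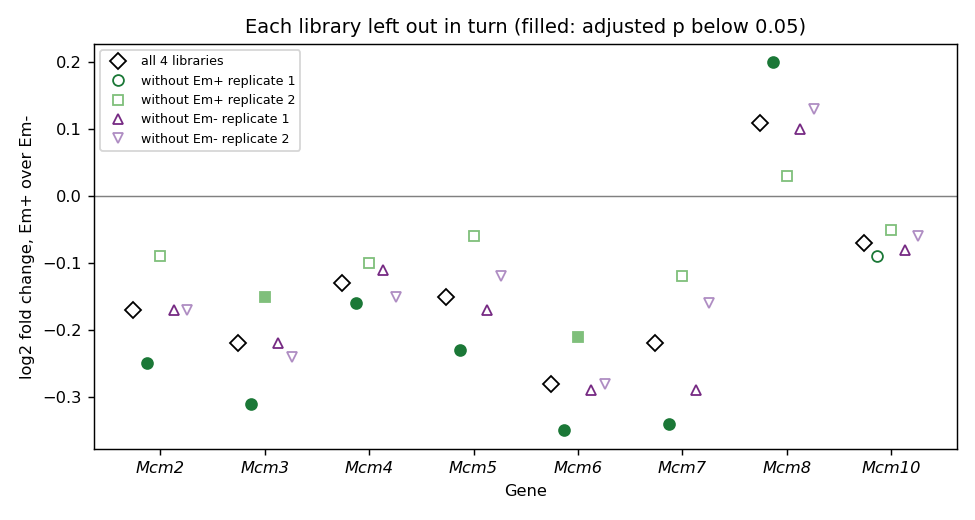
log2 fold change (Em+ over Em-) of the Mcm genes other than Mcm9 with all 4 libraries and with each library left out in turn; filled points have an adjusted p below 0.05. Mcm2 to Mcm7 are all filled without Em+ replicate 1, where 19.5% of all genes were called lower.

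Mcm10 had 186 and 181 CPM in Em+ and 191 and 193 CPM in Em-. Its log2 fold change was -0.07 (95% interval -0.21 to 0.07, adjusted p = 0.517, edgeR), and it was called under none of the 17 alternatives.

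Levels per length on the RefSeq rows had nearly the same order in each library. Mcm6 was highest, at 79.5 and 61.3 FPKM in Em+ and 94.8 and 95.7 FPKM in Em-. Mcm5 (72.2 and 54.6 FPKM in Em+, 76.6 and 79.5 FPKM in Em-) and Mcm3 (68.1 and 51.8 FPKM in Em+, 78.5 and 77.3 FPKM in Em-) followed, and changed places in Em- replicate 1. Mcm2 came next, at 57.4 and 43.6 FPKM in Em+ and 63.2 and 63.0 FPKM in Em-. Within each Em+ library the order was Mcm6, Mcm5, Mcm3 and Mcm2. Between the Em+ libraries the ranges of these neighbours overlapped, and over all genes the median ratio of FPKM in Em+ replicate 2 to Em+ replicate 1 was 0.847. In Em- the ranges of Mcm5 and Mcm3 overlapped, and those of Mcm6 and Mcm2 stood apart from them.

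Mcm4 had 38.4 and 31.3 FPKM in Em+ and 43.2 and 41.8 FPKM in Em-. Mcm10 had 26.1 and 21.7 FPKM in Em+ and 27.7 and 28.1 FPKM in Em-. Mcm7 had 9.69 and 7.07 FPKM in Em+ and 10.4 and 11.3 FPKM in Em-, with the uncertainty of its count. Mcm8 had 6.70 and 6.42 FPKM in Em+ and 6.73 and 6.87 FPKM in Em-. Mcm7 and Mcm8 did not overlap in either fraction.

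The promoters of several members hold E2F-type words, the letters bound by the E2F factors that drive S-phase genes. The words TTTCGCGC, TTTGGCGC, TTTCCCGC and TTTGCCGC were searched on both strands, overlaps allowed, in RefSeq windows of 250 bases before to 50 bases after the start (GRCm38.p6). Of the 8 members with a window, 5 held at least 1 word (62.5%), as did 34.1% of 44 other replication genes listed and 2.6% of 27025 genes. Mcm3, Mcm5, Mcm6, Mcm7 and Mcm8 held one, and Mcm2, Mcm9 and Mcm10 held none of these words in the window. The Mcm9 window belongs to a start inside the locus and does not cover the start of the full-length transcript, which was not searched. Stretches upstream of the start are shown, with the words in capitals (joined where they overlap), for Mcm5 at chr8:75109336-75109383 on the plus strand, for Mcm6 at chr1:128359788-128359835 (distal) and chr1:128359725-128359772 (proximal) and for Mcm7 at chr5:138172021-138172068 on the minus strand. A match is a description of letters and not a binding site.

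Mcm5: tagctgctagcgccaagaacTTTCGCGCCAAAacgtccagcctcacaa

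Mcm6 distal: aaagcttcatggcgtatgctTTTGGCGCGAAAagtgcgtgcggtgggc

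Mcm6 proximal: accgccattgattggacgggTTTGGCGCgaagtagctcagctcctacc

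Mcm7: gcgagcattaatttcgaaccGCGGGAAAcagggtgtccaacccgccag

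Genes that start next to a member on the other strand were not called. Prkdc, a DNA repair kinase gene whose start lies 466 bases from that of Mcm4, had 161 and 229 CPM in Em+, against 147 and 145 CPM in Em- (log2 fold change 0.41, adjusted p = 0.144, edgeR). Trmt6, a tRNA methyltransferase subunit gene 86 bases from Mcm8, had 56.8 and 53.6 CPM in Em+, against 50.6 and 50.3 CPM in Em- (0.13, adjusted p = 0.313). Ap4m1, an adaptor complex subunit gene 420 bases from Mcm7, averaged 19.7 ± 0.565 CPM in Em+ and 20.2 ± 0.274 CPM in Em- (SD, 2 libraries each; log2 fold change -0.04, adjusted p = 0.834). The rows of the microRNA hairpins in an Mcm7 intron had log2 fold changes of -0.11 (Mir25), -0.16 (Mir93) and -0.37 (Mir106b), none called, and such rows do not measure mature microRNAs.

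The partners of the helicase were mostly not called. Of 132 tested genes in 8 lists of replication, repair and cell cycle genes, 2 were called higher and 0 lower in Em+, against 3.82% and 0.822% of all genes. At an unadjusted p below 0.05, 12 were higher (9.09%) and 23 lower (17.4%), against 14.5% and 10.7% of all genes.

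The list of 13 origin licensing genes holds loaders of the ring and also an inhibitor of loading. None of them was called, and the median log2 fold change was -0.02. Gmnn, the inhibitor of CDT1, had the lowest value (67.2 and 61.3 CPM in Em+, against 81.5 and 76.8 CPM in Em-, log2 fold change -0.30, adjusted p = 0.0829, edgeR), and Orc4, an origin recognition subunit, the highest (0.23, adjusted p = 0.166). Among the 14 helicase activation genes none was called, with a median of 0.02. Ticrr, which helps load CDC45, had 95.3 and 129 CPM in Em+, against 78.8 and 82.5 CPM in Em- (0.48, adjusted p = 0.0875). The lowest value was that of Ppp1ca, a phosphatase catalytic subunit gene (-0.28, adjusted p = 0.107), with Gins2, a GINS subunit gene named after its value was seen, at the same rounded value (-0.28, adjusted p = 0.0686).

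The 31 tested replication fork genes had a median log2 fold change of -0.13, and 26 were below 0, where 49.3% of all genes were. None was called. Dscc1, a subunit of a clamp loader, was lowest (-0.36, adjusted p = 0.116, edgeR), and Mms22l, a fork repair factor, was highest (0.27, adjusted p = 0.163). The 15 S-phase nucleotide and E2F target genes had a median of -0.12, with 13 below 0 and none called, from Ung, a uracil glycosylase (-0.34, adjusted p = 0.0821), to Tyms, thymidylate synthase (0.33, adjusted p = 0.269). The 8 helicase unloading genes had a median of 0.00, and their values ran from -0.14 (Faf1) to 0.06 (Ufd1l). The 18 E2F and Rb regulators had a median of -0.02, from E2f2 (-0.30, adjusted p = 0.0699) to cyclin gene Ccne2 (0.36, adjusted p = 0.127).

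Among 15 tested repair partners of MCM8 and MCM9, Brca2, a gene of homologous recombination, rose in Em+. It had 399 and 461 CPM in Em+, against 311 and 322 CPM in Em- (log2 fold change 0.44, SE 0.08, adjusted p = 0.0315, edgeR). Nbn, a double-strand break sensor subunit, had the lowest value (-0.25, adjusted p = 0.113), and the list's median was -0.03. Among 18 genes of G2 and mitosis, Cenpe, a kinetochore motor gene, rose in Em+ with 323 and 351 CPM, against 258 and 270 CPM in Em- (0.35, SE 0.07, adjusted p = 0.0392), the lowest value was that of cyclin gene Ccnb2 (-0.14, adjusted p = 0.302), and the median was 0.04. Neither call held without Em- replicate 1 (log2 fold change 0.41, adjusted p = 0.219 for Brca2, and 0.31, adjusted p = 0.429 for Cenpe), without Em- replicate 2 (0.47, adjusted p = 0.0927, and 0.39, adjusted p = 0.189) or with limma on log2(FPKM + 1) (0.26, adjusted p = 0.345, and 0.18, adjusted p = 0.491). Cenpe was also not called in the known-gene, ENCODE and Ensembl tables or with no filter beyond 1 read (adjusted p from 0.0519 to 0.0597).

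**Figure D5:**
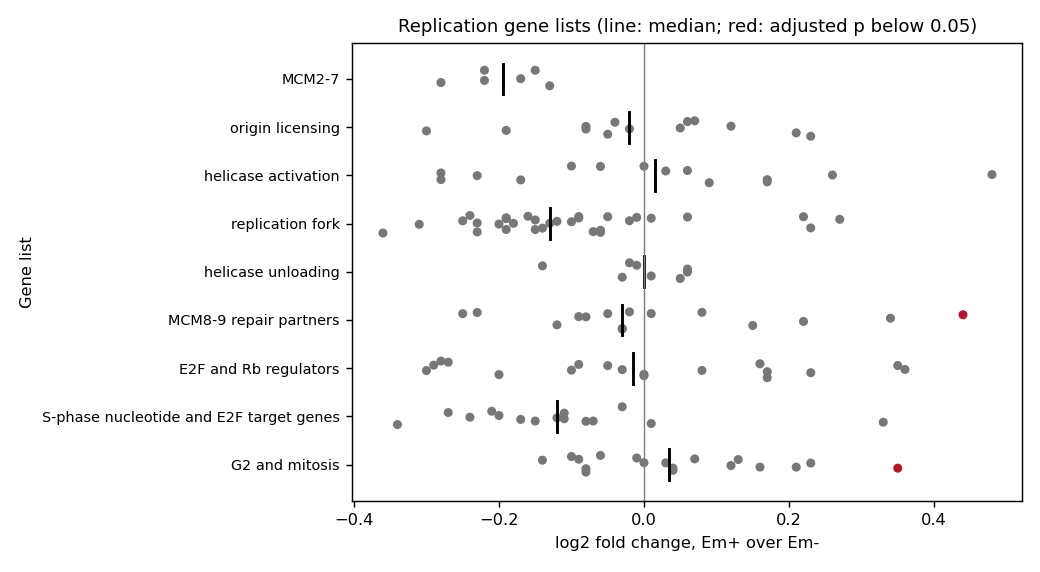
log2 fold change (Em+ over Em-) of every tested gene in the replication lists, 1 point per gene, with the list median as a line; red marks an adjusted p below 0.05. The replicative helicase has a median of -0.20 and the replication fork list of -0.13; Brca2 and Cenpe are the called genes.

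The genes whose profile over the 4 libraries was most like the mean of Mcm2 to Mcm7 were Rars, 5730408K05Rik, Akap12, Hsdl2 and Fez1, of 12041 genes compared. Likeness was the root mean square distance between centred log2 CPM, and it lay between 0.00476 and 0.00649 for these genes. Rars, for example, had 218 and 197 CPM in Em+, against 235 and 238 CPM in Em-.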

How the data were processed

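The authors deposited 4 tables with 1 row per transcript, which differ in the annotation (RefSeq, known-gene, Ensembl or ENCODE). Per the file headers, each holds a raw count and an FPKM value for every library. The submitters' processing notes name Bowtie2 and the build mm10. Not given in the sources used here are the counting program, the annotation releases, the strand setting and the treatment of reads that match several rows. In 2 tables, RefSeq and Ensembl, every deposited count of Em- replicate 1 is 0, so its counts were rebuilt from FPKM, length and library total. The same calculation in the other libraries returned the exact RefSeq count for at least 99.947% of 24538 rows. The library totals behind the FPKM ranged from 35907660 to 37905707 reads, and 43.4 to 51.1% of them were counted on RefSeq rows.

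Libraries were grouped by title. Counts were summed per symbol, and the 12050 symbols with a mean FPKM of at least 1 were tested with the quasi-likelihood test of edgeR 4.0.16 (R 4.3.3; glmQLFit, then glmQLFTest), two-sided, after TMM scaling, with Benjamini-Hochberg adjustment over all and a threshold of 0.05. Transcript rows were tested alike within each table. The fits were tested on simulated data, where the test of a row against its gene was less sensitive for rows holding most of the gene's reads. Alternatives used limma 3.58.1 and DESeq2 1.42.0. The text names all members, and of each other list the called genes and the highest and lowest value, plus neighbouring genes and the 5 genes most alike in profile. The members and lists were chosen with earlier results of these data known.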

Additional observations from a re-analysis of the deposited data

How the results depend on the processing

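Mcm9 was called higher in Em+ under all 17 alternatives, with log2 fold changes from 0.79 (known-gene table, all rows summed) to 2.04. Mcm8 reversed with limma on log2(FPKM + 1), to -0.04, and on log2(FPKM + 0.1), to -0.05, where the median of all genes was -0.14 and -0.16. The number of genes called, 559, was 293 and 269 with these fits, 1178 with no filter beyond 1 read and 1247 with filterByExpr. Leaving out 1 library gave 490 to 4992 genes, 1 to 2 Mcm genes called higher and 0 to 6 called lower. The labels do not say whether libraries with the same replicate number share a sort or culture. Over genes, the replicate differences of Em+ and Em- had a correlation of 0.0161, which cannot exclude it. A fit with the replicate number as a block called 1552 genes, 1 Mcm gene lower (Mcm6, adjusted p = 0.0495 in edgeR) and 12 genes of the 8 lists. The lists' 2 called genes became 0 with both limma fits, 6 with filterByExpr, 1 in each of the known-gene, ENCODE and Ensembl tables, and 0 to 76 with 1 library left out. Of the members' transcript rows, 4 were called (Mcm9 in each table). With no filter beyond 1 read 7 were, 6 of Mcm9 and the RefSeq row of Mcm6 (-0.35, adjusted p = 0.0377), where 1.66 to 5.14% of all rows of a table were called. The cause of these shifts was not tested. With 2 libraries a fraction, whether Mcm2 to Mcm7 were called changed with the Em+ library left out.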

Other observations

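Among the 8 ES cell markers, Nanog, a pluripotency transcription factor gene, rose in Em+, with 594 and 528 CPM, against 393 and 413 CPM in Em- (log2 fold change 0.48, SE 0.08, adjusted p = 0.0192, edgeR). The call did not hold without Em- replicate 1 (0.44, adjusted p = 0.211), without Em- replicate 2 (0.51, adjusted p = 0.0714) or with limma on log2(FPKM + 1) and log2(FPKM + 0.1) (0.31 in both, adjusted p = 0.439 and 0.434). Utf1, another gene of undifferentiated cells, had 68.9 and 80.2 CPM in Em+, against 93.8 and 90.7 CPM in Em- (-0.31, adjusted p = 0.0923, edgeR). Over the 8 markers the median log2 fold change was -0.09, and 4 of them were below 0.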
